A study of Mus musculus with 2 samples.

Results

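Creatine kinases, adenylate kinases and the creatine-synthesis enzyme Gamt were described in long-read RNA sequencing of mouse hippocampus. The 7 genes Ckb, Ckmt1, Gamt, Ak1, Ak3, Ak4 and Ak5 were taken by gene symbol from the deposited tables of both libraries, with every transcript model given to them, and they were 7 of 18595 annotated genes with reads. They held 158 of 133886 transcript models in replicate 1 and 176 of 133393 in replicate 2. Long-read sequencing places each read, and with it a whole chain of introns, on 1 transcript model. The tissue is labelled a layer of the hippocampus, taken at 6 months of age from strain B6NCrl (C57BL/6), described as male although sex itself is marked as not collected. No allele, agent or treatment is labelled, and the 2 libraries form 1 group with no second condition.

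Replicate 1 held 1330153 reads and replicate 2 held 1366252. The labels give the libraries separate biosamples and 1 donor identifier and do not say whether they came from separate animals. Every p-value here therefore compares libraries, not conditions, and whatever it picks up could have a technical origin. Those from Fisher's exact test allow for counting error alone and hold no estimate of the spread between libraries. Only edgeR's exact test includes such an estimate, made from these same 2 libraries. Levels are in CPM, reads per 1000000 reads of the library, not divided by transcript length. Neuronal markers summed to 4103 and 5175 CPM, astrocyte markers to 3235 and 3525 CPM, and the 6 markers of hippocampal fields to 631 and 719 CPM, all 6 with reads. The libraries stood apart in choroid plexus markers, all 4 with reads, with a sum of 13868 CPM in replicate 1 against 311 in replicate 2. In bulk tissue, fewer cells of a type and less RNA per cell cannot be told apart.

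Creatine kinases move a phosphate group between ATP and creatine. The cytosolic brain form is the product of Ckb and the ubiquitous mitochondrial form that of Ckmt1, and phosphocreatine buffers ATP in cells with fast changes in energy use, neurons among them. Creatine itself is made from a precursor supplied by Gatm, which Gamt methylates. Adenylate kinases interconvert ATP, ADP and AMP: Ak1 acts in the cytosol, Ak3 and Ak4 in the mitochondrial matrix, and Ak5 is a cytosolic form known mainly from brain.

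Sequence around the start sites is given first for genes whose first exons were read at more than one annotated start, or, for Ckb, because it was the most abundant of the genes. The sequences are from RefSeq (GRCm38.p6, the same assembly as mm10), run 5′ to 3′ from 250 bases before to 50 bases after a start site, and show in capitals the letters TATAAA of the TATA box, the letters CCAAT of the CCAAT box and the letters GGGCGG of the GC box on either strand. RefSeq entries were found for 6 of the 7 genes.
Ckb start, chr12:111672289-111672588, minus strand: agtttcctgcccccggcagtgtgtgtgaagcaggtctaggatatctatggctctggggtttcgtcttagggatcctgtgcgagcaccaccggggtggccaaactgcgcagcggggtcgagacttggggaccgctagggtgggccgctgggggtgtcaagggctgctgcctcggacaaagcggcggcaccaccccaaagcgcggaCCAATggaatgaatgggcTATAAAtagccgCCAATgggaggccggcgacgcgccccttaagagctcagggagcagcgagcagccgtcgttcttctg
Ckmt1 upstream start, chr2:121357526-121357825, plus strand: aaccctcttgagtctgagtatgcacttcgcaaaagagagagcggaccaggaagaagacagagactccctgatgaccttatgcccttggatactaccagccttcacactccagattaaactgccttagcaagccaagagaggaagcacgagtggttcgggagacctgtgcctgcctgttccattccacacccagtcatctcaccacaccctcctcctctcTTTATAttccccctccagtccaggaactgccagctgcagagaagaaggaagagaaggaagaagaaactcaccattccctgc
Ckmt1 main start, chr2:121358360-121358659, plus strand: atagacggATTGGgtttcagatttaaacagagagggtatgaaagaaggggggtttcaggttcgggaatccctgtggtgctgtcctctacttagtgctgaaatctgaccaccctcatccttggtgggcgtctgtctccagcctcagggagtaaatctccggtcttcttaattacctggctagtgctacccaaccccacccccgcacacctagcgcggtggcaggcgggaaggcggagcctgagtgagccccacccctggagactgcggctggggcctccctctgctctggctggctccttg
Ak1-202 start, chr2:32625187-32625486, plus strand: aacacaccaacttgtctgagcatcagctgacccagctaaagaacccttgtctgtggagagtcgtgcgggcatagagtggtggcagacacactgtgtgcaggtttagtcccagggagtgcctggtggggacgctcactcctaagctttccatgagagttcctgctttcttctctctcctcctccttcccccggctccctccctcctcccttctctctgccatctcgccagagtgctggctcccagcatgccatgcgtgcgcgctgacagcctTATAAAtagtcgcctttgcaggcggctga
Ak1-201 start, chr2:32629250-32629549, plus strand: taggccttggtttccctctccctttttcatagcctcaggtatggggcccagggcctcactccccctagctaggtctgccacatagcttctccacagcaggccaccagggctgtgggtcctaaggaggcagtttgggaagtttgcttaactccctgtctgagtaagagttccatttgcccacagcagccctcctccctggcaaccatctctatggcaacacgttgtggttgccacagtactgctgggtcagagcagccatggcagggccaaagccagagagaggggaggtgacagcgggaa
Ak4-203 start, chr4:101419039-101419338, plus strand: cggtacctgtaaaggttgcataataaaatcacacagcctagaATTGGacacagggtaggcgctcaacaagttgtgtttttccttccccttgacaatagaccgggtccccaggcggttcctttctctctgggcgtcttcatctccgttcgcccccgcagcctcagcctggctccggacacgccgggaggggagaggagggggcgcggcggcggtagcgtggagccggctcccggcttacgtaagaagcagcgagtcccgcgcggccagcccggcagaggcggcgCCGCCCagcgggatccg
Ak4-204 start, chr4:101419453-101419752, plus strand: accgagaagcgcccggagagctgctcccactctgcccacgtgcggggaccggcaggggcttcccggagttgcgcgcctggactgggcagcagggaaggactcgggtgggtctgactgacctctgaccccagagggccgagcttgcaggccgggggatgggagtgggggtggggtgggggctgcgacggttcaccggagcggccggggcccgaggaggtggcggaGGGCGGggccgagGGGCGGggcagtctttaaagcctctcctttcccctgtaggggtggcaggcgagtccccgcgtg

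The Ckb window held TATAAA with its first base 28 bases upstream of the start site and CCAAT at 46 and 16 bases upstream. The upstream Ckmt1 window held the TATAAA motif on the opposite strand, 31 bases upstream, and the main Ckmt1 window held no TATAAA. In Ak1 the Ak1-202 window held TATAAA 21 bases downstream of the start site, and the Ak1-201 window held none of the motifs. The Ak4-203 window held CCAAT on the opposite strand at 208 bases upstream and GGGCGG on the opposite strand at 33 bases downstream, and the Ak4-204 window held GGGCGG at 26 and 13 bases upstream. Of the 32851 RefSeq promoter windows of the same length, 13.6% held TATAAA, 37.4% CCAAT and 35.7% GGGCGG, and no motifs overlapped in the windows shown. A match is a run of letters and not a site of binding.

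Ckb was by far the most abundant of the 7 genes. It had 7394 reads in replicate 1 and 9481 in replicate 2, or 5559 and 6939 CPM, a mean of 6249 ± 976 CPM (SD, n = 2 libraries). This placed it at rank 6 of 18595 genes, and it held 86.0% and 86.4% of the reads of the 7 genes. Together the 7 genes took 0.647% and 0.803% of the libraries.

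Ckmt1, the mitochondrial partner of Ckb in the phosphocreatine shuttle, had 402 and 449 reads, or 302 and 329 CPM (315 ± 18.7 CPM, SD, n = 2). The level of Ckb in CPM was 18.4 times that of Ckmt1 in replicate 1 and 21.1 times in replicate 2. Their main transcripts are of like length, 1472 bases for Ckb-201 and 1620 for Ckmt1-201.

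Gamt had the lowest level with every class of model counted, with 45 and 43 reads, or 33.8 and 31.5 CPM (32.7 ± 1.67 CPM, SD, n = 2). Gatm, whose product acts one step before Gamt, stood at 382 and 388 CPM. Without reads on incomplete models and unspliced genomic reads, Ak4 was lower, at 26.0 CPM against 30.1 CPM for Gamt. The creatine transporter gene Slc6a8 had 11 and 14 reads, or 8.27 and 10.2 CPM. The muscle creatine kinase Ckm and the sarcomeric mitochondrial form Ckmt2 had 0 reads in both libraries, which allows levels of up to 2.26 and 2.20 CPM. Muscle markers summed to 22.6 and 22.0 CPM, nearly all of it Acta1.

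Among the adenylate kinases, Ak5 was read most. It had 381 and 543 reads, or 286 and 397 CPM (342 ± 78.5 CPM, SD, n = 2). Ak1 followed with 188 and 234 reads, or 141 and 171 CPM (156 ± 21.2 CPM, SD, n = 2). Thus the cytosolic forms stood above the matrix forms in both libraries.

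Ak3, which uses GTP in the matrix, had 123 and 143 reads, or 92.5 and 105 CPM (98.6 ± 8.62 CPM, SD, n = 2). Ak4 had 67 and 79 reads, or 50.4 and 57.8 CPM (54.1 ± 5.27 CPM, SD, n = 2). The 4 genes summed to 571 and 731 CPM, well below Ckb alone in each library.

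Ordered by mean CPM the genes ran Ckb, Ak5, Ckmt1, Ak1, Ak3, Ak4 and Gamt. Ak5 and Ckmt1 did not differ beyond their spread: Ckmt1 was the higher in replicate 1 and Ak5 in replicate 2. The other neighbours kept their order in both libraries, although the exact Poisson 95% intervals of Ak4 (39.0 to 64.0 CPM) and Gamt (24.7 to 45.3 CPM) overlapped in replicate 1. These intervals cover counting error only.

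**Figure D1:**
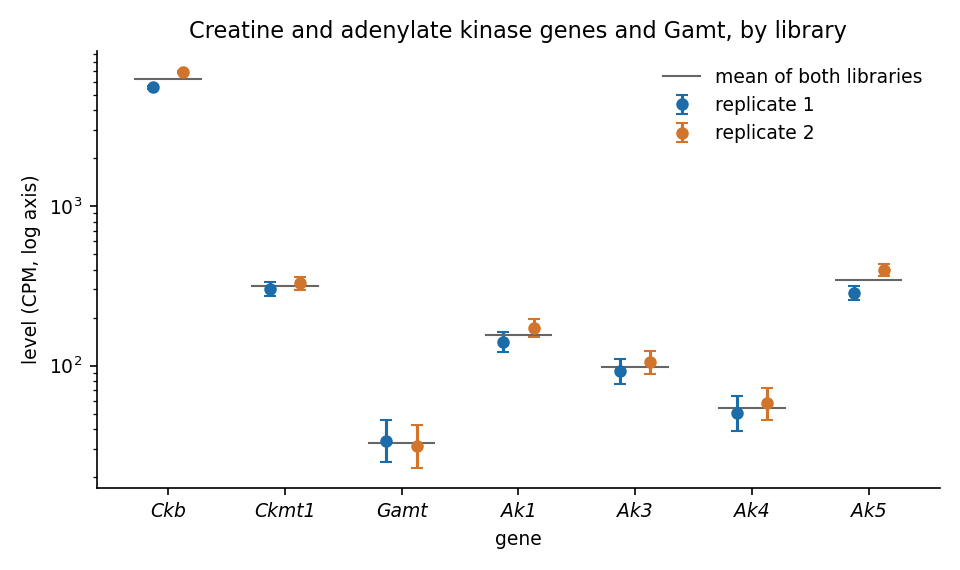
Level of each gene in CPM on a log axis. Points are libraries with exact Poisson 95% intervals, and bars are means of both libraries. Ckb lies at 5559 and 6939 CPM, above all others, and the points of Ckmt1 and Ak5 overlap in height.

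Between the libraries, Ckb and Ak5 were lower in replicate 1. The log2 ratio of CPM, replicate 1 over replicate 2, was -0.32 for Ckb (95% interval -0.36 to -0.28; adjusted p = 4.66e-44, Fisher's exact test, two-sided, Benjamini-Hochberg over 11891 genes). For Ak5 it was -0.47 (95% interval -0.67 to -0.28; adjusted p = 5.58e-05, same exact test). So 2 of the 7 genes were called, both higher in replicate 2, and over all 11891 genes with at least 10 reads 5.95% were called: 2.56% with more in replicate 1, 3.38% with more in replicate 2.

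The other 5 genes did not pass the test. Their log2 ratios were -0.12 for Ckmt1, 0.10 for Gamt, -0.28 for Ak1, -0.18 for Ak3 and -0.20 for Ak4, and their 95% intervals all included 0. The sign for Ak4 turned to 0.24 without genomic and incomplete models. The median over the 7 genes was -0.20, and that over all tested genes with reads in both libraries was -0.05. The calls of Ckb and Ak5 were not made by edgeR's exact test: its unadjusted p was 0.410 for Ckb and 0.221 for Ak5, and its adjusted p was 1 for both. It takes into account the spread between the libraries, a coefficient of variation of 16.1% that edgeR terms biological. This spread was estimated from the same 2 libraries, so the differences under test were themselves counted as spread. That test called 50 genes, 0.42% of those tested. Beside these differences stand the sums of the marker lists: 4103 and 5175 CPM for the 4 neuronal markers and 4907 and 6644 CPM for the 4 oligodendrocyte markers. The 3 microglial markers summed to 294 and 395 CPM and the 2 endothelial markers to 175 and 246 CPM. Of the markers in these lists, Mog alone was higher in replicate 1, with 14 and 7 reads. The astrocyte and hippocampal field sums given above were also lower in replicate 1, and those of choroid plexus and muscle were higher. Against their sums, the astrocyte marker Slc1a2 (611 and 515 CPM, adjusted p = 0.0206, Fisher's exact test) and the hippocampal field marker Prox1 (29 and 26 reads) were higher in replicate 1. The part of these cell types in the Ckb and Ak5 levels was not tested.

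**Figure D2:**
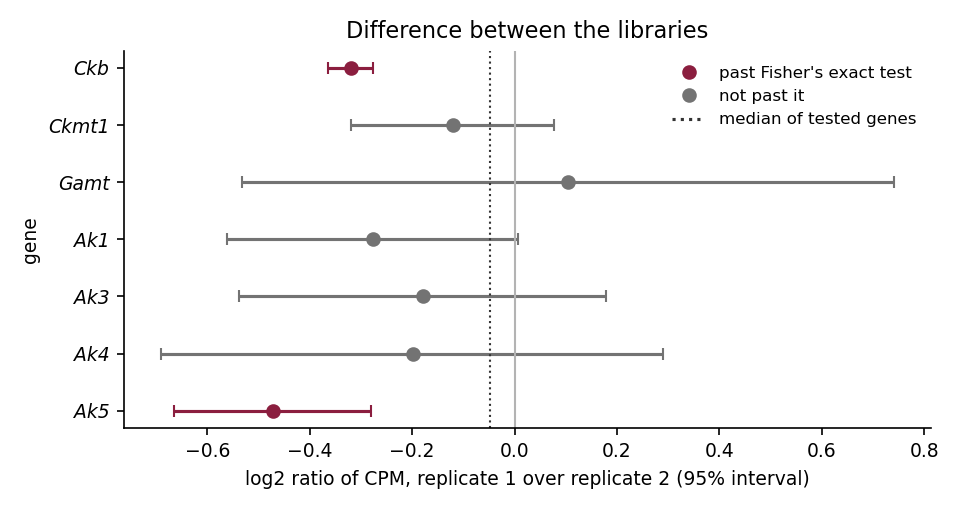
Log2 ratio of CPM, replicate 1 over replicate 2, with its 95% interval for each gene. Ckb at -0.32 and Ak5 at -0.47 passed Fisher's exact test and the intervals of the other 5 genes include 0; the dotted line is the median of the tested genes, -0.05.

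Of 39 other genes listed for the pathway, 35 had reads and 31 could be tested, of which 2 were higher and 2 lower in replicate 1, 12.9% against the 5.95% called over all genes, with a median log2 ratio of -0.06. Slc25a4, the ADP/ATP carrier of the inner mitochondrial membrane, was the most abundant at 2680 and 2597 CPM. The outer membrane channel Vdac1 had 816 and 1105 CPM and was lower in replicate 1 (log2 ratio -0.44, adjusted p = 2.68e-12, Fisher's exact test), and Vdac2 had 423 and 496 CPM. A second carrier gene, Slc25a5, had 381 and 302 CPM and was higher in replicate 1 (log2 ratio 0.33, adjusted p = 0.0121, Fisher's exact test).

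Of 9 listed nucleotide kinase genes for other substrates, the 3 most abundant were Nme1, Guk1 and Nme2. The nucleoside diphosphate kinase genes Nme1 and Nme2 had 454 and 403 CPM and 241 and 251 CPM. Their sequences are alike, and whether reads were split correctly between them was not tested. The guanylate kinase Guk1 had 356 and 371 CPM. Cmpk1, a UMP and CMP kinase, had 110 and 154 CPM (log2 ratio -0.49, adjusted p = 0.0337, Fisher's exact test). Nme7 had 137 and 48 reads, or 103 and 35.1 CPM (log2 ratio 1.55, adjusted p = 1.10e-09, Fisher's exact test), and was the only gene of these lists also called by edgeR's exact test (adjusted p = 0.0267); it overlaps Atp1b1, so its count is uncertain.

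Among further adenylate kinases, Ak6, a nuclear form, had 141 and 126 CPM. Ak8 had 4 and 2 reads, and Ak7, known from cilia, and Ak9 had between 1 and 4 reads per library. Of the enzymes that handle AMP and adenosine, adenosine kinase (Adk) had 145 and 173 CPM, Adss 80.4 and 84.9 CPM and the nucleotidase Nt5c 75.2 and 84.9 CPM. Of the subunits of the AMP-activated protein kinase, the nucleotide-binding subunit gene Prkag1 had 74.4 and 76.9 CPM, Prkag2 18.0 and 20.5 CPM, and the catalytic subunit gene Prkaa2 13.5 and 23.4 CPM. None of the tested genes of these 3 lists passed the test.

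Transcript models divide into annotated transcripts, incomplete models that hold part of an annotated chain of introns, models that join known splice sites in a new way, those with at least 1 unannotated site, and genomic models of unspliced reads. Annotated models held 94.1% and 94.8% of Ckb reads, 89.1% and 89.1% of Ckmt1 reads, and 84.4% and 88.4% of Gamt reads. They held 72.9% and 76.1% for Ak1, 77.2% and 84.6% for Ak3, and 65.9% and 70.3% for Ak5. Ak4 was the exception, with 47.8% and 35.4% of its reads on annotated models and 41.8% and 51.9% on incomplete ones.

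Genomic models held 12.2% and 10.3% of Ak1 reads and 15.4% and 11.2% of Ak3 reads, and none of the reads of Ckb or Ckmt1. The share of incomplete and genomic models together differed between the libraries for none of the 7 genes (two-sided Fisher's exact test, adjusted over 7092 genes, of which 1.66% were called). It ran from 5.14% and 4.57% in Ckb to 44.8% and 58.2% in Ak4, against a median of 19.5% over all those genes.

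**Figure D3:**
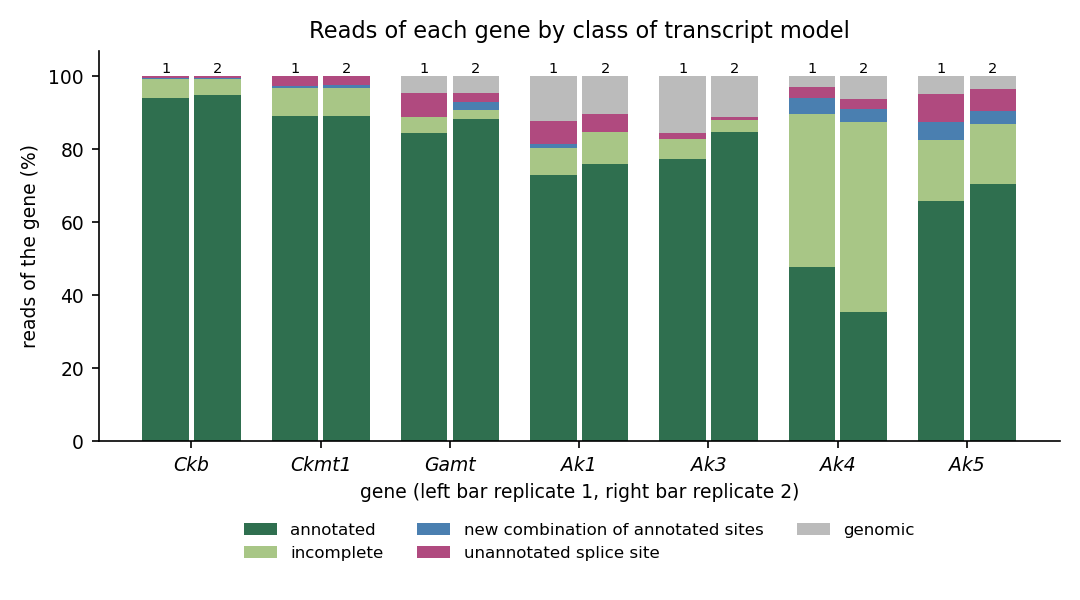
Percentage of each gene's reads on the classes of transcript model, with a bar for each library (replicate 1 left, replicate 2 right). Annotated models fill over 84% of the bars of Ckb, Ckmt1 and Gamt, and Ak4 has the largest incomplete share, 41.8% and 51.9%.

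Each gene other than Ak4 had 1 annotated transcript in front. With genomic reads left out, Ckb-201 took 93.5% and 94.2% of reads, Ckmt1-201 86.8% and 87.8%, Gamt-202 88.4% and 92.7%, Ak1-202 82.4% and 84.3%, Ak3-201 91.3% and 95.3%, and Ak5-201 69.3% and 72.7%. The median over all tested genes was 70.3%, so Ak5 lay close to it and the other 5 above it. None of the 7 leading shares differed between the libraries (two-sided Fisher's exact test, adjusted over 6262 genes, of which 3.21% were called).

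Ckb lies on chr12:111669361-111672338 (mm10, minus strand, GENCODE M21) and is a compact gene of 2978 bases. The share of its reads spliced at each intron of Ckb-201 climbed from 94.3% and 94.9% at intron 1, at the 5′ end, to 99.6% and 99.5% at intron 7. All 6 coding introns of Ckb-201, and no other intron within the coding sequence, were present in 95.1% and 95.6% of reads. The annotated retained-intron transcript Ckb-204, in which only intron 7 is spliced, had 45 and 59 reads placed on it, 0.609% and 0.622% of the gene. A read of Ckb-201 that lost its 5′ end up to exon 7 would hold the same intron and cannot be told apart from Ckb-204 here. An incomplete 3-exon model of Ckb-201 had 49 and 49 reads. Of 50 unannotated spliced models, 4 had at least 2 reads in each library, and all 50 together held 106 of 16875 reads. The most read of them, with 8 and 7 reads, kept intron 3 and spliced all others. The other 3 kept intron 5 (3 and 2 reads), moved the donor of intron 2 by 97 bases into the exon (2 and 4 reads), or moved that of intron 5 by 398 bases into the intron with no intron before it (2 and 3 reads).

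Ckmt1 lies on chr2:121357714-121363737 (plus strand) and has 10 annotated transcripts, 3 of them with reads. The first intron of Ckmt1-201, which follows the main start shown above, was the first in 89.1% and 90.4% of reads, and most of the rest began at later introns and show no start. Ckmt1-201 had 349 and 394 reads, against 2 and 2 for Ckmt1-202, which starts 834 bases further upstream and has the same coding sequence. The first intron of Ckmt1-202 was present in 4 and 2 reads, 0.995% and 0.445% of the gene. The retained-intron transcript Ckmt1-210 had 7 and 4 reads placed on it. Its only intron is intron 8 of Ckmt1-201, so a read of Ckmt1-201 with a lost 5′ end cannot be told apart from Ckmt1-210 here. No unannotated spliced model of Ckmt1 had 2 reads in each library, and 87.8% and 88.4% of reads held its complete coding chain of 8 introns.

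Gamt lies on chr10:80258151-80261012 (minus strand), where only Gamt-202 of 4 annotated transcripts had reads, 38 and 38. Gamt-201, annotated with a coding sequence 16 codons longer, had 0 reads in both libraries. A complete coding chain was found in 84.4% and 88.4% of reads. At 45 and 43 reads, the exact Clopper-Pearson 95% intervals of the annotated share are wide for Gamt, and 4 unannotated spliced models held 5 reads in all.

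Ak1 lies on chr2:32621758-32635058 (plus strand) and has several annotated starts. Ak1-202 was read most, with 136 and 177 reads. Ak1-203, which starts 3679 bases upstream with the same coding sequence, had 0 and 0 reads. Ak1-201, which starts 4067 bases downstream and codes for 16 residues more, had 1 and 1 reads. By first intron, 76.1% and 79.5% of reads carried the first intron of Ak1-202. The share spliced at each intron rose to 87.8% and 89.7% at intron 6, the rest being largely the unspliced genomic reads (23 and 24).

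Small shifts of splice sites were found at both edges of Ak1 exon 3, a coding exon of 36 bases. In one model the exon began 2 bases later and in another it ended 4 bases earlier, each with 2 and 3 reads. Neither is a multiple of 3 bases. The exon is shown from GENCODE M21, with the bases lost at either edge in capitals.
Ak1-202 exon 3, chr2:32629849-32629884, plus strand: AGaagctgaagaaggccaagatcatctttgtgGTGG

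Ak3 lies on chr19:29020833-29047961 (minus strand), where Ak3-201 had 95 and 121 reads and the shorter Ak3-202 had none. The share spliced was nearly even along the gene, from 80.5% and 87.4% at intron 1 to 81.3% and 86.7% at intron 4. The 19 and 16 unspliced reads made up most of the remainder. Part of the Ak3 exons, 430 bases, lies on the opposite strand to exons of Cdc37l1 (77 and 97 reads), and the strand setting of the libraries is not given, so reads in that stretch are uncertain between the genes. Unannotated spliced models of Ak3 held 3 of 266 reads.

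Ak4 lies on chr4:101419277-101466995 (plus strand). Its most read model was not an annotated transcript: it had 5 exons and lacked exon 1 of Ak4-201. It carried 23 and 35 reads, 35.4% and 47.3% of the gene's reads with genomic ones left out. It holds the 4 coding introns of Ak4-201, since the start codon lies in exon 2. Whether such a read started near exon 2 or lost its 5′ end cannot be told apart in these tables. The deposited start of the model, position 101419706 in both libraries, is the annotated start of Ak4-204, whose window is shown above. It lies 429 bases downstream of the start of Ak4-201. Exon 2 of Ak4-201 begins 452 bases downstream of the start of Ak4-201, so as deposited the model starts in intron 1 of that transcript. Reads whose first intron was the second intron of the main transcript made up 34.3% and 44.3% of Ak4 reads. The same share was 1.64% and 1.41% in Ckb, 1.99% and 1.56% in Ckmt1, 3.19% and 2.56% in Ak1, 2.22% and 0% in Gamt, 0.813% and 0.699% in Ak3, and 0.787% and 0.552% in Ak5.

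Reads with an Ak4 exon 1 divided between 2 donor sites. The donor of Ak4-201 was used in 19 and 11 reads, 55.9% and 37.9% of those joined to exon 2. That of Ak4-203, 186 bases further on, was used in 14 and 17 reads, 41.2% and 58.6%. The Ak4-202 donor had 1 and 1 reads. Ak4-201 led in replicate 1 and Ak4-203 in replicate 2, and the unadjusted p of the difference for Ak4-201 was 0.208 (two-sided Fisher's exact test). All 3 transcripts have the same coding sequence of 223 codons. Ak4-206, an annotated noncoding transcript with its own first exon inside intron 2, had 2 and 4 reads, and a splice from exon 2 past exon 3, annotated in Ak4-205, was in 3 and 2 reads. With the 5-exon model counted, 79.1% and 74.7% of Ak4 reads held the complete coding chain, against 47.8% and 35.4% on annotated models.

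**Figure D4:**
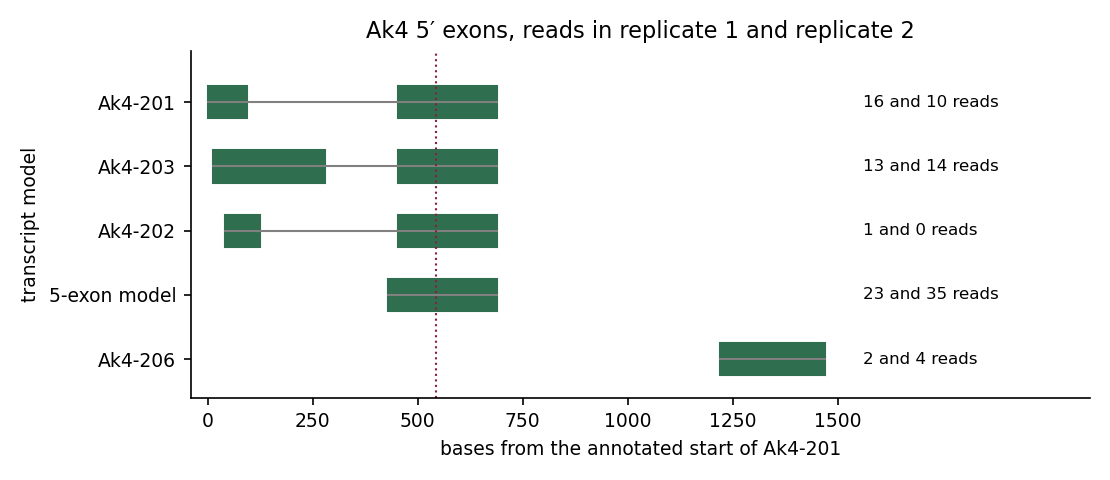
5′ exons of the Ak4 models in bases from the annotated start of Ak4-201, with boxes for exons and the reads of replicate 1 and replicate 2 at the right. The dotted line marks the start codon. The 5-exon model, with 23 and 35 reads, lacks the upstream exon and, as deposited, contains the start codon. Starts of single reads were not counted.

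Ak5 lies on chr3:152462815-152668360 (minus strand) and is the longest of the 7 genes, spanning 205546 bases with 14 exons in Ak5-201. Its complete coding chain of 13 introns was in 65.9% and 70.2% of reads, the lowest share of the 7 genes. The share spliced rose from 80.1% and 83.4% at intron 1 to 88.2% and 91.2% at intron 12. It then dropped to 81.9% and 82.3% at intron 13.

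The drop at intron 13 came with other splice sites at the joint of exons 13 and 14. Counted were 339 and 483 reads joined there with at most 1 site moved, and that by 20 bases or less. Of these, 312 and 447 used the sites of Ak5-201, 92.0% and 92.5%. A donor 4 bases further on, in no annotated transcript, was used with the acceptor of Ak5-201 in 14 and 14 reads, 4.13% and 2.90%. Further reads joined this donor to other acceptors nearby (1 and 1 reads for one, 1 and 0 for another) and are left out here. An acceptor 5 bases earlier, annotated in Ak5-203, was used in 10 and 17 reads, 2.95% and 3.52%. A donor 20 bases further on was used in 3 and 5 reads. In all, the shifted sites made up 7.96% (exact Clopper-Pearson 95% interval 5.31 to 11.4%) and 7.45% (5.27 to 10.2%), and the libraries did not differ beyond counting error (unadjusted p = 0.791, two-sided Fisher's exact test). The joint lies inside the coding sequence and none of the 3 shifts is a multiple of 3 bases.

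The joint is shown 5′ to 3′ from GENCODE M21 transcripts on the minus strand of chromosome 3, with 12 bases of exon 13 first. Capitals mark the 5 bases that the earlier acceptor adds in Ak5-203, and the 4 bases that the later donor would add, read from the retained-intron transcript Ak5-202.
Ak5-201, exon 13 joined to exon 14: cagctacggaaggtaaatgcagag
Ak5-203, exon 13 joined to the earlier acceptor: cagctacggaagTACAGgtaaatgcagag
Ak5-202, exon 13 running into intron 13 (chr3:152472743-152472768): cagctacggaagGCAAgtgtcgcctc
In these letters intron 13 of Ak5-201 begins with gc, and the donor 4 bases further on begins with gt.

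Other Ak5 models were rarer. Of 41 unannotated spliced models, 31 rested on 1 read, and all 41 held 99 of 924 reads. The models with the 5-base, 4-base and 20-base shifts and an otherwise complete chain had 7 and 14, 8 and 9, and 3 and 4 reads. A 9-exon model that left the chain in intron 8 had 4 and 2 reads. Skipping of exon 12 was in 4 and 2 reads and skipping of exon 13 in 2 and 1.

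**Figure D5:**
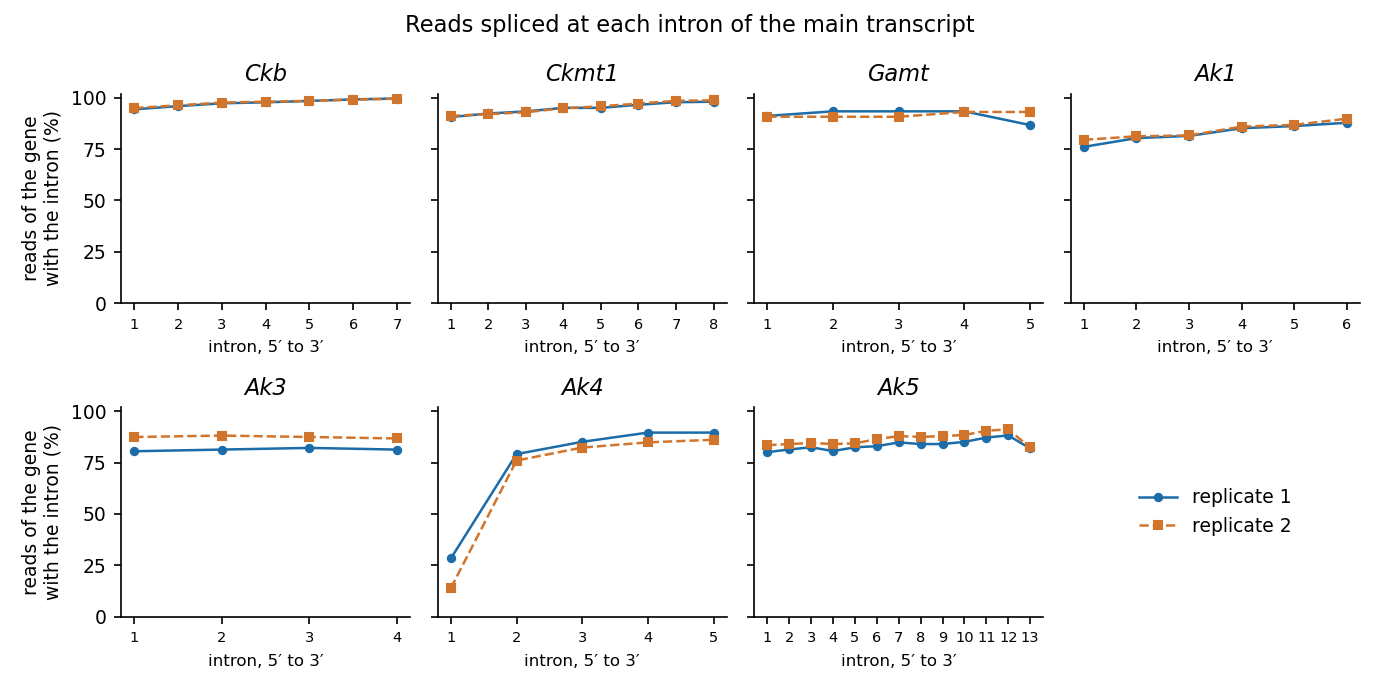
Percentage of each gene's reads spliced at each intron of its main transcript, 5′ to 3′, with replicate 1 solid and replicate 2 dashed. Ak4 falls to 28.4% and 13.9% at intron 1, and Ak5 dips at intron 13 to 81.9% and 82.3%.

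The complete coding chain thus ran from 65.9% and 70.2% of reads in Ak5, with 13 coding introns, to 95.1% and 95.6% in Ckb, with 6. Ckmt1, with 8, stood above Ak3, with 4, in both libraries, but the Ak3 total includes 19 and 16 unspliced reads. With genomic reads left out, Ak3-201 held 91.3% and 95.3% of Ak3 reads, above the 87.8% and 88.4% of Ckmt1, which had no genomic reads. Few reads were placed on copies of Ckb and Ak4. Ckb shares 19.4% of its 25-base words with the pseudogene Gm12892, which had 1 and 0 reads, and the pseudogenes Ckb-ps1 and Ckb-ps2 had none. Ak4 shares 12.2% with Ak3l2-ps, which had none. Whether reads of these copies were placed on Ckb or Ak4 instead was not tested.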

How the data were processed

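For each library the authors deposited whole-number read counts for every transcript model, not normalized. Their tables also give exon numbers and lengths, and their annotations exon coordinates. Models were made with TALON, per the file headers, on mm10 with GENCODE M21, per the deposited description files. The sources used here name no aligner, platform, filter or strand setting. Depths were 1330153 and 1366252 reads, 1 read being 0.752 and 0.732 CPM.

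Gene counts are sums over a gene's models. Models were matched between libraries by chromosome, strand and chain of introns. Genes with 10 or more reads in all were compared by a two-sided exact test (Fisher's) of their reads against all others, with p-values adjusted by Benjamini and Hochberg's method at 0.05 (scipy 1.17.1). Shares were tested the same way from a minimum of 20 reads per library, and single junctions without adjustment. edgeR 4.0.16 gave TMM sizes and an exact test, DESeq2 its size factors. The chi-square of the libraries' counts was 4.71 per degree of freedom, so they were not copies. The tests were checked on simulated counts with counting error alone, so the check does not cover the larger spread between these libraries. Intervals are exact and cover counting error only, and molecular identifiers are not described. Ends of models were not counted, since each model has 1 deposited start and end.

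The 7 genes, the pathway lists and the markers were chosen with earlier results of these data known. Named were all 7 genes, the 3 pathway genes of highest CPM per list and each that passed the test, models with at least 5% of a gene's reads and unannotated spliced models with 2 reads in each library; 1 listed gene is not reported here. Single splice sites, first introns and the sequences were chosen after their values were seen.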

Additional observations from a re-analysis of the deposited data

How the results depend on the processing

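The 707 genes called between the libraries (305 higher and 402 lower in replicate 1) became 425 with annotated transcripts alone and 50 with edgeR's exact test (439 at an unadjusted p under 0.05). TMM library sizes gave 657, split 352 and 305, and moved the median log2 ratio from -0.05 to -0.0009. Ckb and Ak5 kept their direction under every setting and their call under all but edgeR's exact test. Without genomic and incomplete models the mean level was 291 CPM for Ckmt1, 30.1 for Gamt, 126 for Ak1, 81.1 for Ak3 and 26.0 for Ak4, the last because its leading model is an incomplete one, which puts Ak4 below Gamt. Genes with a differing leading share numbered 201, or 13 when incomplete models were left out, and those with a differing incomplete share 118, or 540 for genomic models alone; the cause was not tested. The log2 ratio of Ak4 between the libraries, -0.20 and not past the test, turned to 0.24 without genomic and incomplete models and to 0.31 with annotated transcripts alone, also not past it; no other of the 7 genes turned its sign. No paired analysis was possible because there is only 1 group. With 1 group of 2 libraries, leaving out a replicate leaves single values, and shares of Gamt and Ak4 rest on 43 to 79 reads per library.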

Other observations

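Reads placed at loci antisense to the 7 genes were few. Gamt had 3 and 5 such reads in replicate 1 and replicate 2, all over its exons, against 45 and 43 reads of its own. Ak3 had 3 and 2, Ak1 2 and 1, Ak5 2 and 0, Ak4 1 and 0, Ckb 0 and 1, and Ckmt1 none. Beside the overlap of Ak3 with Cdc37l1, exons shared 283 bases with a gene on the opposite strand between Ak3 and 1700018L02Rik (0 and 1 reads), 10 between Ckmt1 and Strc, 12 between Ak5 and Zzz3, and 33 between Ak5 and AI115009.

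Shifts of 20 bases or less at 1 end of an intron were counted where its other end was unchanged. An intron was kept with at least 2 reads over both libraries. Ak5 had 7 such shifts with 34 and 40 reads, Ckb 7 with 16 and 13 reads, and Ak1 4 with 7 and 8 reads. Ckmt1, Gamt, Ak3 and Ak4 had none counted in this way. Introns with both ends moved were left out, among them a Ckmt1 intron (chr2:121361241-121362683, 2 and 0 reads). A shift of 4 bases made up 3 of those of Ak5, 2 of those of Ak1 and 1 of those of Ckb. These counts were not scaled to depth. Over both libraries the genes ran from 88 reads for Gamt to 16875 for Ckb, with 924 for Ak5.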
